A study of Schmidtea mediterranea with 5 samples.

Results

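*egfr-3* (transcript SmedASXL_000685 of the planarian *Schmidtea mediterranea*) was followed across 5 RNA-seq libraries. It was chosen by its name and identifier, with earlier results of these data known. It is 1 of 82354 transcripts in the deposited tables, of which 68301 are listed for all 5 libraries. It also stands in a list of 59 known stem cell transcripts compiled by the study, so 58 others serve for comparison.

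EGF receptors are membrane tyrosine kinases. Binding of an EGF or neuregulin-like ligand outside the cell brings receptors together, and the kinase domains then pass the signal on through adaptors and MAP kinases to transcription factors. Planarians carry several EGF receptor genes, and in *S. mediterranea* RNAi of *egfr-3* is known to disturb regeneration and the fate of dividing neoblasts, the adult stem cells of the animal.

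All animals were of the asexual clonal strain CIW4. The X1 library came from the cycling stem cell fraction and the X2 library from the progeny-associated fraction, both obtained by Hoechst staining and flow sorting of cells from dissociated animals. The irradiated library came from whole animals 7 days after 60 Gy of gamma irradiation, which removes neoblasts and, in time, their progeny. The *control(RNAi)* library came from whole animals fed dsRNA of *unc22*, a *C. elegans* sequence that serves as negative control, and the *mex3-1(RNAi)* library from whole animals fed dsRNA of *mex3-1*, which encodes an RNA-binding protein. Both were collected 12 days after 1 feed according to the sample titles, whereas the growth protocol speaks of 5 feeds. Each RNAi library pooled 3 RNA preparations. Each condition had 1 library, so no value below has a replicate check, no test across animals was possible and no p-value is given. All intervals are 95% intervals of the reads. They cover counting error only and compare libraries, not conditions.

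The libraries held 60528509 to 69835694 mapped reads, and *piwi-1*, *prog-1* and *mex3-1* matched the labels. *piwi-1*, the PIWI protein gene of neoblasts, stood at 3697 CPM (reads of a transcript scaled to the mapped total of its library) in X1 and 3.21 CPM in irradiated animals. *prog-1*, a marker of early epithelial progeny, was at 2156 CPM in X2 and 91.2 CPM in X1. *mex3-1* itself was at 144 CPM in *control(RNAi)* and 23.4 CPM in *mex3-1(RNAi)* animals. The summed level of 6 stem cell markers was 6571 CPM in X1, 1533 in X2, 655 in *control(RNAi)*, 1127 in *mex3-1(RNAi)* and 61.9 in irradiated animals. All 6 had reads in every library, and 3 of them were below 1 CPM after irradiation. In X1 the 5 early progeny markers summed to 595 CPM and the 5 late ones to 42.1 CPM, against 14126 and 529 CPM in X2. That late sum in X2 lay below the 1797 CPM of *control(RNAi)* animals. Of the late markers, *AGAT-1* was at 254 CPM in X2 and 224 CPM in *control(RNAi)*, and *AGAT-2* at 227 and 265 CPM. In the same order *pmp-11* was at 30.5 and 1097 CPM, *pmp-9* at 11.2 and 118 CPM and *prog-1-7* at 6.48 and 92.5 CPM.

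*egfr-3* was read in every library, and its level was highest in the sorted stem cells. It was at 96.3 CPM in X1 (6242 reads, interval 93.9 to 98.7). In X2 it was at 81.5 CPM (4936 reads, 79.3 to 83.9). Both sorted fractions thus lay well above the whole animals. *control(RNAi)* animals had 33.7 CPM (2324 reads, 32.4 to 35.1). *mex3-1(RNAi)* animals had 29.9 CPM (1889 reads, 28.6 to 31.3). Irradiated animals were lowest, with 18.8 CPM (1310 reads, 17.8 to 19.8). No neighbouring pair in this order had overlapping counting intervals, but the spread between animals is unknown for each step. In RNA from whole animals or from a sorted fraction, fewer cells that express *egfr-3* and less *egfr-3* RNA per cell cannot be told apart.

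**Figure D1:**
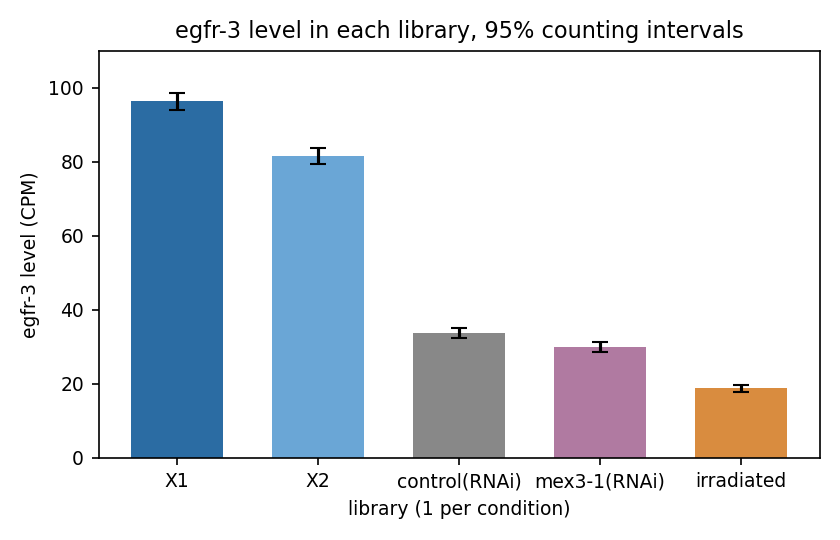
Level of *egfr-3* in CPM (bars, axis from 0) in each of the 5 libraries, 1 per condition, with 95% counting intervals as error bars. X1 (96.3) and X2 (81.5) stand above *control(RNAi)* (33.7), *mex3-1(RNAi)* (29.9) and irradiated animals (18.8).

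Ratios below are of CPM + 1, the scale of the deposited values, and log2 folds are their log2. A fold of at least 2 in either direction counts as a call. The background is the share called among all transcripts that are listed for both libraries and reached 1 CPM in one or both. Several comparisons share a library, the irradiated or the *control(RNAi)* one, so they are not independent of each other. X1 and X2 were dissociated, stained and sorted cells, whereas the other libraries came from whole animals. The part of this handling in the folds between fractions and whole animals was not tested. The fractions also differed from whole animals in their median over well-read transcripts, by 0.23 (X1) and 0.31 (X2) over irradiated and by 0.20 and 0.26 over *control(RNAi)* on the log2 scale, so the *egfr-3* fold relative to that median is given as well.

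The first comparison asks how far the receptor transcript is enriched in the stem cell fraction over irradiated animals. *egfr-3* was 4.92-fold higher in X1 than in irradiated animals (4.65 to 5.22), a log2 fold of 2.30 (2.22 to 2.38) or 2.07 relative to the median. Of all 21044 transcripts 24.1% were called higher at 2-fold, and 93.1% of the 21044 had a lower fold than *egfr-3*. Of the 58 other stem cell transcripts, 57 were called higher, with a median log2 fold of 3.33 against -0.18 over all transcripts. The study chose that list as known stem cell genes, so its direction over irradiated animals is no independent evidence. Within the list *egfr-3* was near the low end, at place 51 of 59. All 11 transcripts for the cell cycle and DNA replication (median 5.92) and each of 9 PIWI, Vasa or Tudor transcripts (3.92) lay above it, as did 11 of 13 chromatin regulators (2.82) and 6 of 8 transcription factors (3.35). Its neighbours in the ranking were *med14*, a Mediator subunit (2.39), and *SmB*, a core protein of the spliceosome (2.34), on the higher side. *HSC70IP* (2.13) and splicing factor 3B (1.94) followed on the lower side. The interval of *egfr-3* overlapped those of *med14* and *SmB* and not those of the latter pair.

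In X2, the fraction that holds postmitotic progeny, *egfr-3* was 4.18-fold higher than in irradiated animals (3.94 to 4.43). The log2 fold was 2.06 (1.98 to 2.15), or 1.75 relative to the median. The background of higher calls was 23.0%, and 94.5% of 20494 transcripts had a lower fold. All 58 other stem cell transcripts were called higher (median 2.59, all transcripts -0.03), 46 of them above *egfr-3*, which took place 47. Splicing factor 3B (2.06) and *tdrd1l2*, a Tudor domain gene (2.05), were its nearest neighbours, and *not6*, a deadenylase subunit gene (2.09), and *SmB* (1.91) came next. Of these 4, the *SmB* interval alone did not overlap that of *egfr-3*.

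Between the fractions, *egfr-3* differed little. Its level in X2 was 0.848 of that in X1 (0.818 to 0.880), a log2 fold of -0.24 (-0.29 to -0.18), and 30.8% of 18151 transcripts had a lower fold. Of the other 58 stem cell transcripts 23 were called lower in X2 against a background of 6.69%, and 1 was called higher against 13.8%. Their median log2 fold was -0.65, against 0.06 over all transcripts, and 46 of them lay below *egfr-3*, which took place 13. The cell cycle transcripts had a median of -2.82 and the PIWI, Vasa and Tudor group one of -1.35, while chromatin regulators, at -0.35, lay nearer to *egfr-3*. Its direct neighbours were *EZH1*, a histone methyltransferase gene (-0.18), and *HDAC1*, a histone deacetylase gene (-0.24). *KHD-1* (-0.18) and *ash2-like*, named after a subunit of histone H3 methyltransferase complexes (-0.33), were next. *piwi-1* was at 934 CPM in X2 and 3697 CPM in X1, so the X2 library also held stem cell RNA, and the part of this RNA in the X2 level of *egfr-3* was not tested.

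On the CPM + 1 scale, whole *control(RNAi)* animals held 1.76 times the *egfr-3* level of irradiated animals (1.65 to 1.88). The log2 fold was 0.81 (0.72 to 0.91), under the 2-fold call. The background of higher calls was 3.29% of 19254 transcripts, and 94.7% had a lower fold than *egfr-3*. Among the 58 others 34 were called higher, with a median of 1.12 against 0.13 over all transcripts, and *egfr-3* was at place 43. Around it stood *H3* (0.86) and *oltud-2* (0.88) above and *KHD-1* (0.81) and *prox-1*, a homeobox gene (0.77), below, all with intervals that overlapped its own.

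Expressed as what was left, now in CPM without the added 1, irradiated animals retained 55.6% of the *control(RNAi)* level of *egfr-3* (51.9 to 59.5). The other stem cell transcripts ranged from 0.293% to 83.1% with a median of 45.9%, and 14 of 58 retained more. The lowest value, of *armc1*, rests on 1 read in irradiated animals (interval 0.00739% to 1.64%). The *piwi-1* and *PCNA* levels, by contrast with *egfr-3*, went from 308 and 31.2 CPM to 3.21 and 0.401 CPM. Progeny markers differed between these libraries as well: the 5 early ones summed to 1397 CPM in *control(RNAi)* and 4.07 CPM in irradiated animals, where 3 of them were below 1 CPM, and the 5 late ones to 1797 and 228 CPM. All 10 had reads in both, and the part of these cells in the *egfr-3* level was not tested. The 2 libraries differ in more than irradiation, since only the *control(RNAi)* animals were fed dsRNA, and the part of feeding in the *egfr-3* level was not tested.

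**Figure D2:**
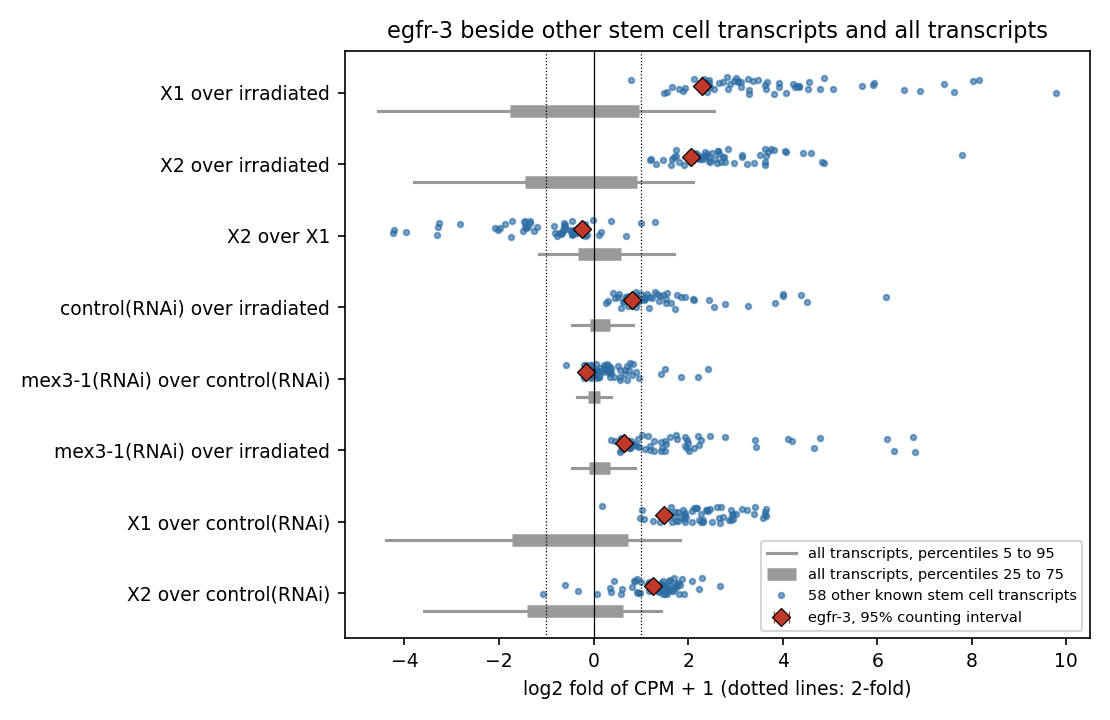
Log2 folds of CPM + 1 in 8 comparisons for *egfr-3* (red diamonds, 95% counting intervals, mostly within the symbol), the 58 other known stem cell transcripts (blue points, scattered vertically for visibility) and all transcripts (grey, percentiles 25 to 75 thick and 5 to 95 thin). *egfr-3* is past the dotted 2-fold lines in X1 and X2 over irradiated (2.30, 2.06) and over *control(RNAi)* (1.49, 1.25), and on the lower side of most stem cell points except in X2 over X1.

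The fractions were also set against intact whole animals. *egfr-3* was 2.80-fold higher in X1 than in *control(RNAi)* animals (2.67 to 2.94), a log2 fold of 1.49 (1.42 to 1.55) or 1.28 relative to the median. The study chose the 58 others as known stem cell genes, so their direction over *control(RNAi)* animals is no independent evidence either. The background was 17.9%, and 56 of the 58 others were called higher, with 52 of them above *egfr-3*. Its nearest neighbour there was *med14*, 1 place above, then *KHD-1* (1.60), with splicing factor 3B (1.40) and *mll5-2* (1.26) below. In X2 the ratio of *egfr-3* was 2.38 (2.26 to 2.49), a log2 fold of 1.25 (1.18 to 1.32), at a background of 13.9%. Relative to the median this fold was 0.99, just short of 2-fold, so the X2 call over *control(RNAi)* depends on the scaling. Here 42 of the 58 others were called higher, with a median of 1.43. *egfr-3* was at place 38, between *tud-1* (1.29) and *SmB* (1.22), with *vasa-2* (1.30) and *BRG1L* (1.18) one step further.

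The comparison of *mex3-1(RNAi)* with *control(RNAi)* animals asks what happens to the receptor transcript when *mex3-1* is knocked down. *egfr-3* was at 0.889 of its control level (0.838 to 0.943), or 1.12-fold lower (1.06 to 1.19). The log2 fold was -0.17 (-0.26 to -0.08), far from the 2-fold call, and 17.8% of 19639 transcripts had a lower fold. Over all transcripts 0.412% were called higher and 1.02% lower. Of the 58 other stem cell transcripts 5 were called higher, all of the cell cycle and DNA replication group, and 0 lower, and their median was 0.28 against 0.01 over all. *egfr-3* stood at place 55 of 59, with 54 of the others above it. It was 1 of few on its side of 0: the counting interval lay above 0 in 41 of the 58 others, held 0 in 10 and lay below 0 in 7. Over all transcripts 25.1% had an interval above 0 and 21.3% one below.

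The 7 below 0 were *Smedinx-11*, named as a gap junction innexin (-0.58), *pbx-1*, a homeobox gene (-0.20), *CyclinD2* (-0.19), *not6* (-0.18), *KHD-1* (-0.15), *piwi-3* (-0.11) and *HDAC1* (-0.06). Of these, *CyclinD2*, *not6*, *KHD-1* and *piwi-3* were the direct neighbours of *egfr-3* in the ranking, and the intervals of all 4 overlapped its own. *PCNA*, the replication clamp gene, was by contrast at 114 CPM after *mex3-1* RNAi and 31.2 CPM in the control, and *piwi-1* at 452 and 308 CPM.

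Markers of other cells moved much further than *egfr-3* between these libraries. The 5 early epithelial progeny markers summed to 66.2 CPM in *mex3-1(RNAi)* and 1397 CPM in *control(RNAi)* animals, and the 5 late ones to 42.2 and 1797 CPM. All 10 had reads in both libraries. *prog-2* was at 14.0 against 485 CPM, *AGAT-1* at 11.8 against 224 CPM and *AGAT-2* at 16.2 against 265 CPM. The part of these shifts in the *egfr-3* level was not tested.

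Over irradiated animals, *egfr-3* in *mex3-1(RNAi)* animals was 1.56-fold higher (1.46 to 1.67), a log2 fold of 0.64 (0.55 to 0.74). The background of higher calls was 3.83%, 38 of the 58 others were called, and *egfr-3* was at place 51. *KHD-1* (0.66) and *ash2-like* (0.64) flanked it, with *MBD23* (0.66) and *hsp40* (0.59) beyond.

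**Figure D3:**
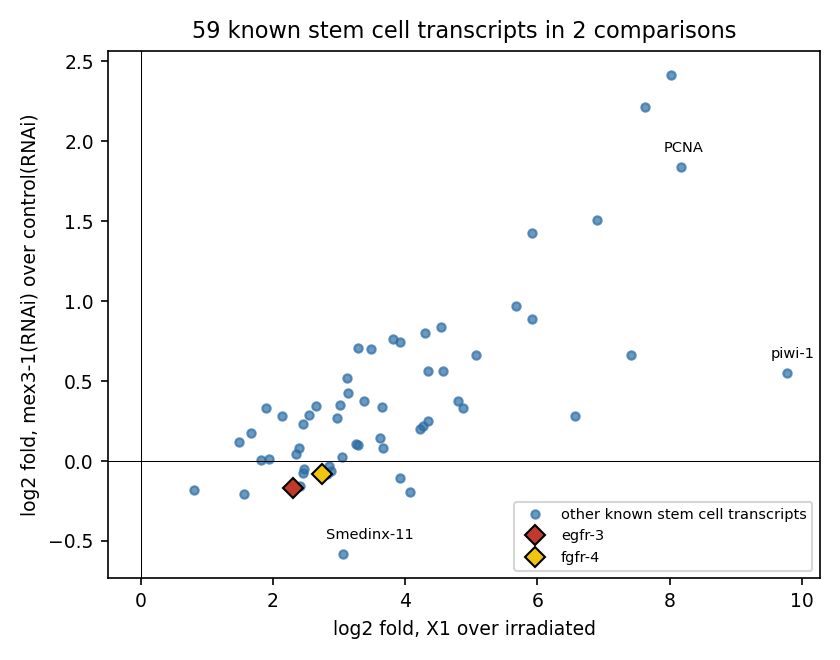
The 59 known stem cell transcripts by their log2 fold in X1 over irradiated (x axis) and in *mex3-1(RNAi)* over *control(RNAi)* (y axis), which share no library. *egfr-3* (red, 2.30 and -0.17) and *fgfr-4* (yellow, 2.74 and -0.08) lie at the lower left, *PCNA* at the upper right, and *Smedinx-11* has the lowest value on the y axis.

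Other transcripts of receptor and growth factor signalling were compared over the same libraries. The list held 9, named by the study after their closest homologs. The study took 8 of them from its transcripts most enriched in X2, so their direction in X2 is no independent evidence, and *fgfr-4* from its stem cell list. *fgfr-4*, like *egfr-3* a receptor tyrosine kinase gene, was at 84.3 CPM in X1, 63.9 in X2, 24.7 in *control(RNAi)*, 23.3 in *mex3-1(RNAi)* and 11.7 in irradiated animals. Its levels stood in the order of those of *egfr-3*, but the intervals of *control(RNAi)* (23.5 to 25.9) and *mex3-1(RNAi)* (22.1 to 24.5) overlapped. Its log2 folds were 2.74 in X1 over irradiated, 2.35 in X2 over irradiated, -0.39 in X2 over X1, 1.01 in *control(RNAi)* over irradiated and -0.08 after *mex3-1* RNAi, the last with an interval that held 0 (-0.18 to 0.02). Levels of different transcripts are not compared, since the values are not scaled to length.

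The other 8 act further inside the cell, and unlike *egfr-3* all but *stripe-1* were higher in X2 than in X1. *NLK*, a serine/threonine kinase gene, was at 145 CPM in X1, 472 in X2, 44.2 in *control(RNAi)*, 41.2 in *mex3-1(RNAi)* and 15.2 in irradiated animals. *egr-1*, a zinc finger factor gene of the early growth response type, was at 29.2, 219, 21.1, 8.38 and 1.203 CPM in that order of libraries. The study also counts *egr-1* among its 32 new epithelial progenitor markers. The study drew those 32 from its X2-enriched transcripts and a smaller irradiation-sensitive set, so their direction between X2 and X1 is no independent evidence. Of those 32, 27 were called higher in X2 than in X1, at a background of 13.8%. *NLK* thus peaked in X2 at 1.70 over X1 and *egr-1* at 2.87 on the log2 scale, where *egfr-3* was at -0.24. *TRAF6-1*, an adaptor gene of receptor signalling (2.27), *RREB1*, a Ras-responsive zinc finger gene (1.71), *pim3-1*, a kinase gene (1.43), *DOK3*, an adaptor gene of tyrosine kinases (0.79), and *egr-4* (0.40) had positive values too. *stripe-1*, an *egr*-related factor gene, was at -0.02.

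The X2 counts of the signalling list are no independent evidence, since 8 of the 9 were taken for enrichment in X2. Over the list of 9, 5 were called higher in X2 than in X1 (background 13.8%, median 1.43). Over irradiated animals 8 were called higher in X2 (23.0%, median 2.35), 5 in X1 (24.1%, median 1.95) and 5 in *control(RNAi)* (3.29%, median 1.01). After *mex3-1* RNAi 0 were called higher and 2 lower, *TRAF6-1* (-1.25) and *egr-1* (-1.24), at the background of 1.02% given above, and the median was -0.10. Of the 32 epithelial progenitor markers, which include *egr-1*, 29 were called lower in the same comparison. *egfr-3*, at -0.17, was in the middle of the signalling list of 9, with 5 members above and 4 below it.

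The likeness of whole profiles was measured as the root mean square difference of log2(CPM + 1) over the 5 libraries, each transcript centred on its own mean. Of 136 named transcripts, the 5 nearest to *egfr-3* were *KHD-1* (0.066), *SmB* (0.094), *ash2-like* (0.1001), *nicalin* (0.113) and *fgfr-4* (0.145). *fgfr-4* was also the nearest of the signalling list, ahead of *stripe-1* (0.279), *egr-4* (0.398), *RREB1* (0.665), *pim3-1* (0.758), *DOK3* (0.813), *NLK* (0.944), *TRAF6-1* (1.15) and *egr-1* (1.52). Such closeness to *egfr-3* was common: *KHD-1* was only at place 28 and *fgfr-4* at place 498 among all 13947 transcripts with at least 5 CPM in some library. The 3 nearest of any kind had no name in the study's lists, namely SmedASXL_015710 (0.023), SmedASXL_009652 (0.025) and SmedASXL_078960 (0.038). A difference under 0.3, a limit set for description, held for 13.3% of all and for 18 of the 58 stem cell transcripts. The median difference from *egfr-3* was 0.476 over the stem cell list and 1.12 over all, while *piwi-1* (2.57) and *PCNA* (2.16) were far from it.

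**Figure D4:**
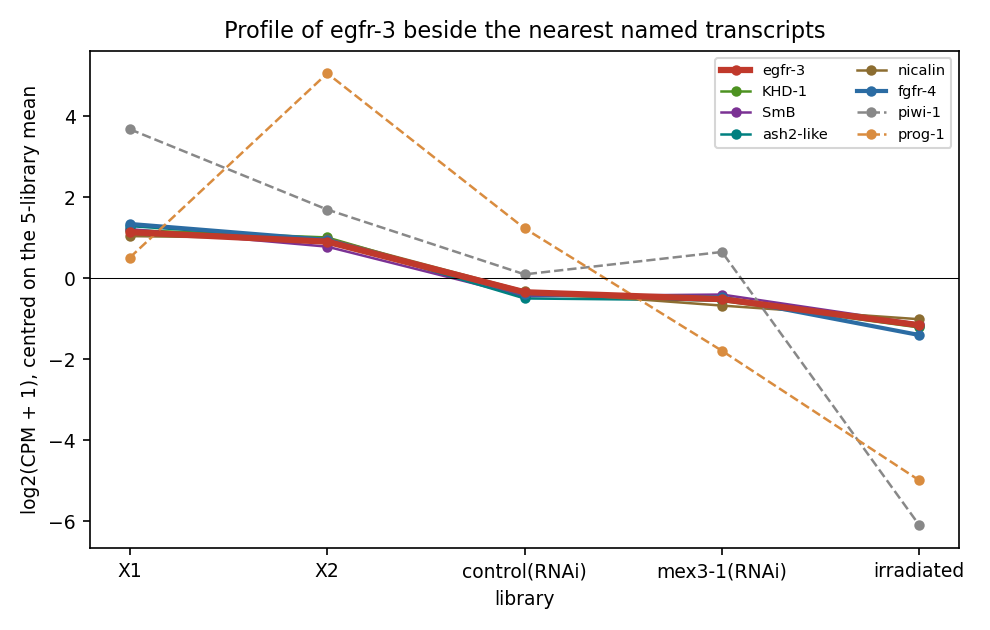
Profiles over the 5 libraries as log2(CPM + 1) centred on each transcript's mean (y axis), for *egfr-3* (thick red), its 5 nearest named transcripts (solid) and *piwi-1* and *prog-1* (dashed). Lines join libraries for reading only. The nearest transcripts run along *egfr-3*, *piwi-1* has a steeper course with a higher value in *mex3-1(RNAi)* than in *control(RNAi)*, and *prog-1* peaks in X2.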

How the data were processed

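RNA-seq of 5 polyA-selected libraries was analysed, 1 per condition, from single-end reads of 50 bases. The authors mapped untrimmed reads with Bowtie2 2.2.4 to the SmedASXL transcriptome and deposited a signal of CPM + 1 per transcript, that is, reads scaled to the mapped total with a pseudocount of 1 and no scaling to length. The authors' deposited enrichment tables hold the authors' own log2 folds and FDR values and were not used, nor were 10 columns of libraries from other series.

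The pseudocount was taken off and the rest divided by the step of each library. Each quotient was a whole number of reads to within 0.01. Totals came to 63209234 reads for *mex3-1(RNAi)*, 68883087 for *control(RNAi)*, 69835694 for irradiated, 60528509 for X2 and 64821930 for X1. Rows without a transcript name held at most 4.94e-05% of a total and were left out. Levels have exact Poisson intervals, and folds and retained percentages exact Clopper-Pearson intervals of the reads of one library among both. Background counts used transcripts listed for both libraries that reached 1 CPM in one or both, and medians for scaling used those that reached 5 CPM in both. Python 3.11.15, numpy 2.4.6, pandas 2.3.3 and scipy 1.17.1 were used, and the scripts were tested on simulated data.

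The stem cell, X2 progenitor and epithelial progenitor lists come from the study's supplementary files. The groups within the stem cell list and the signalling list were put together here from genes in those files. The gene, lists and rules were chosen with earlier results of these data known. Named transcripts were *egfr-3*, label markers, the whole signalling list, the 5 named and 3 other nearest profiles and the 2 stem cell transcripts on either side in each ranking. The stem cell transcripts with an interval below 0 after *mex3-1* RNAi were named after their values were seen. Alternatives were pseudocounts of 0.1 and 5, the median set to 0, totals without the 10 most abundant transcripts, a 1.5-fold call and no filter. No sequence was used here.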

Additional observations from a re-analysis of the deposited data

How the results depend on the processing

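The direction of the *egfr-3* fold was kept in all 8 comparisons under the alternatives run, and none reversed. With a pseudocount of 5 the log2 folds were 2.09 (X1 over irradiated), 1.87 (X2 over irradiated), 0.71 (*control(RNAi)* over irradiated), 1.39 (X1 over *control(RNAi)*) and 1.16 (X2 over *control(RNAi)*). With the median of well-read transcripts set to 0, the X1 and X2 folds were 2.07 and 1.75 over irradiated and 1.28 and 0.99 over *control(RNAi)*, the last below 2-fold. With totals that left out the 10 most abundant transcripts of each library, they were 2.46 and 2.22 over irradiated and 1.65 and 1.40 over *control(RNAi)*. A 1.5-fold call gave 35 of 58 other stem cell transcripts lower in X2 than in X1 in place of 23, and 15 higher after *mex3-1* RNAi in place of 5. No share of all transcripts at 1.5-fold is given, so these counts have no background to be read against. Of 65 alternative values of the main results 50 stayed within the counting interval or within 1.5 times the count. With log2(CPM + 5) profiles, 4 of the 5 nearest named transcripts stayed among the nearest 5. No library could be left out, and no paired analysis was possible because each condition has 1 library. With no filter on low values the share of all transcripts past 2-fold in either direction was lower in all 8 comparisons. Examples are 18.8% in place of 60.9% in X1 over irradiated and 0.341% in place of 1.43% after *mex3-1* RNAi. This drop was fixed in advance: transcripts under 1 CPM in both libraries were then counted, and with a pseudocount of 1 they cannot pass 2-fold. The depth behind each level was 1310 to 6242 reads of *egfr-3*.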
